A study of Mus musculus with 30 samples.

Results

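The genes described here are 10 secreted components of the extracellular matrix: the small leucine-rich proteoglycans Dcn, Bgn, Aspn, Lum, Fmod, Prelp and Ogn, the matricellular proteins Postn and Sparc, and the adhesive glycoprotein Fn1. They were chosen as a list of names, with earlier results of these data known. Matching the Ensembl identifiers of the raw count table to gene symbols gave 10 of 55487 genes. All groups were myotubes of C2C12, a mouse myoblast line that fuses into multinucleated fibres when serum is lowered, of wild-type genotype, differentiated for 4 days and then held for 4 days in 1 of 5 media, 8 days in all. Differentiation was in low glucose DMEM with 2% horse serum. The 2% HS group remained with 2% horse serum, and the SD group was serum-deprived in low glucose DMEM. The MET, LEU and MET+LEU groups were serum-deprived with 100 nM metformin, 500 nM leucine or both. Each group had 6 libraries of ribosomal RNA-depleted, stranded total RNA. Nothing in the sources used here says whether the 6 came from separate cultures, so p-values measure the spread between these samples, which may be technical. A single cell line was used, so these are RNA levels of cultured myotubes and the mononucleated cells that remain beside them.

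Small leucine-rich proteoglycans are compact matrix proteins whose leucine-rich core binds collagen and controls how fibrils assemble, and several of them also hold TGF-beta family growth factors. Matricellular proteins such as periostin and SPARC tune how cells attach to the matrix rather than building it, while fibronectin forms the fibrils on which collagen is laid down and is the main ligand of several integrins. In skeletal muscle these proteins make up part of the connective tissue around fibres, and fibroblasts and myogenic cells both secrete them.

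Libraries held between 12784960 and 19604103 counts, and 15907 genes passed the filter on low counts, all 10 members among them. Values are given as CPM, which are counts scaled to a common library size, here with TMM factors. Together the 10 genes took 0.934% to 1.05% of all counts in 2% HS and 1.36% to 1.55% in the other groups, and Fn1 alone made up between 49.5% and 56.1% of their sum. MET+LEU replicate 6 stood apart from every other library: nuclear-encoded ribosomal RNA took 5.85% of its counts and mitochondrial ribosomal RNA 7.64%, against at most 1.96% and 0.76% in the other libraries, and its TMM scaling factor was 0.803 against at least 0.968. The number of members that passed in comparisons of MET+LEU with another group is therefore also given without it. The other MET+LEU libraries had TMM factors of 0.968 to 0.985, below the 0.997 or more of every library outside that group. Leaving out replicate 6 does not remove that difference.

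Serum deprivation raised 9 of the 10 genes, and Ogn was the exception. In SD vs. 2% HS the 9 passed an adjusted p of 0.05 (edgeR quasi-likelihood test, Benjamini-Hochberg over all genes tested), all of them upward, where 13.9% of all genes tested rose and 27.8% changed in either direction. The median log2 fold change over the members was 0.66, against 0.00 over all genes tested. Because the members were chosen with earlier results of these data known, this contrast is a description and not a test of the list. In each of the 9 the 6 SD libraries lay above the 6 libraries of 2% HS, a separation that 6.17% of the genes tested showed. DESeq2 also called 9.

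**Figure D1:**
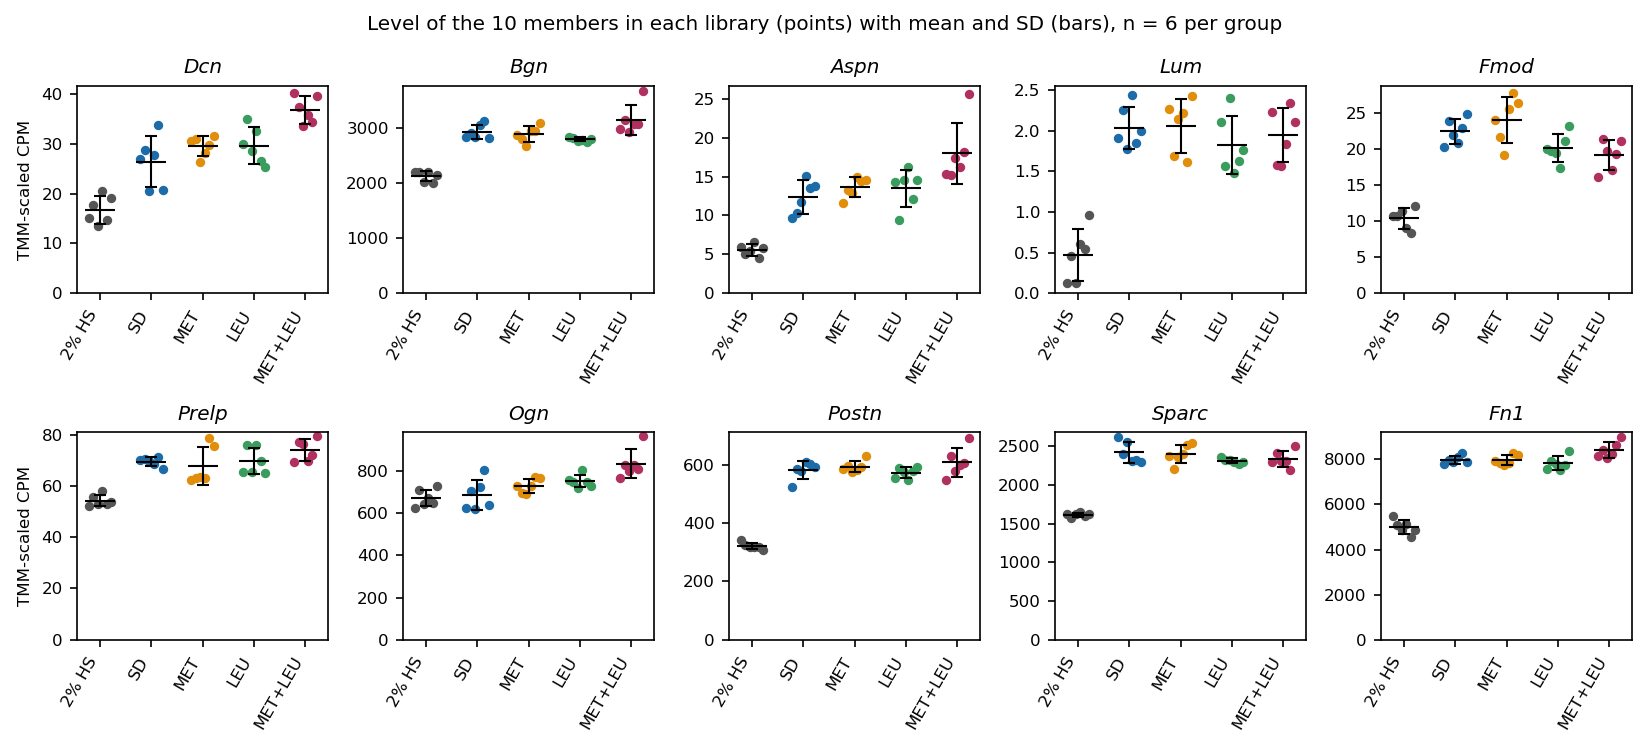
Level of each member in every library as TMM-scaled CPM, with 1 panel for each gene, vertical axes that start at 0 and 1 column for each medium. Points are libraries, the long bar is the mean and the error bars are the SD over 6 libraries. In 9 panels all SD points lie above all 2% HS points, and in the Ogn panel the 2 groups overlap.

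Decorin, biglycan and asporin are the closely related class I proteoglycans, of which decorin and biglycan carry glycosaminoglycan chains and asporin has a run of aspartates in place of them. Dcn (ENSMUSG00000019929, GRCm38 chr10:97479609-97518143, plus strand) lay at 13.4, 16.5 and 20.4 CPM as the lowest, median and highest library of 2% HS, and at 20.6, 27.4 and 33.8 CPM in SD. The groups lay close together without overlap, and the log2 fold change was 0.65 ± 0.11 (SE, n = 6 per group, edgeR adjusted p = 2.17e-05). With MET+LEU it stood higher again, at 33.5, 36.6 and 40.3 CPM, so that only the highest SD library reached into the range of the combination.

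Bgn (ENSMUSG00000031375, chrX:73483602-73495933, plus strand) was far more abundant, with 2005.6, 2167.5 and 2195.5 CPM as the lowest, median and highest 2% HS libraries and 2819.6, 2864.8 and 3115.3 CPM in SD, a log2 fold change of 0.46 ± 0.04. Under the combination it lay at 2924.0, 3062.7 and 3670.0 CPM, overlapping SD. Aspn (ENSMUSG00000021388, chr13:49544443-49567565, plus strand) was a low-abundance member that more than doubled, from 4.54, 5.63 and 6.63 CPM in 2% HS to 9.62, 12.6 and 15.1 CPM in SD, with a log2 fold change of 1.13 ± 0.14 (edgeR adjusted p = 3.33e-08). Among Dcn, Bgn and Aspn it alone had all 6 MET+LEU libraries above SD, at 15.2, 16.8 and 25.6 CPM. The gap was narrow, with the lowest MET+LEU library at 15.24 CPM and the highest SD library at 15.11 CPM. The 25.6 CPM is that of MET+LEU replicate 6, and the next library lay at 18.2 CPM. That separation upward between MET+LEU and SD was shown by 3.41% of the genes tested.

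Lumican, fibromodulin and PRELP belong to class II, whose core proteins carry keratan sulfate or, in PRELP, a basic heparin-binding end. Lum (ENSMUSG00000036446, chr10:97565128-97572703, plus strand) had the largest change of the 10 on the fewest counts. Its libraries held 2 to 14 counts in 2% HS and 24 to 39 in SD, or 0.127, 0.501 and 0.968 CPM against 1.77, 1.96 and 2.44 CPM. The log2 fold change was 2.10 ± 0.26 (edgeR adjusted p = 8.09e-09), the highest 2% HS library lay below the lowest SD library, and the size of the change is loosely bounded at this depth (95% interval 1.56 to 2.63).

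Fmod (ENSMUSG00000041559, chr1:134037254-134048277, plus strand) went from 8.39, 10.8 and 12.1 CPM in 2% HS to 20.3, 22.5 and 24.9 CPM in SD (log2 fold change 1.11 ± 0.09, edgeR adjusted p = 6.43e-14). It was the member that passed downward under the combination, at 16.2, 19.6 and 21.5 CPM in MET+LEU, where the ranges of the 2 groups overlapped. Prelp (ENSMUSG00000041577, chr1:133910304-133921414, minus strand) had the smallest change of the 9, from 52.4, 53.2 and 57.9 CPM to 66.7, 70.0 and 71.3 CPM, a log2 fold change of 0.36 ± 0.05. The antisense gene Gm15851 overlaps 9.68% of the Prelp exons and held 2 counts in all 30 libraries.

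Osteoglycin, also called mimecan, is a class III member of the family. Ogn (ENSMUSG00000021390, chr13:49608046-49624501, plus strand) did not follow the others. It lay at 627.3, 661.5 and 728.5 CPM in 2% HS and at 622.4, 672.9 and 803.2 CPM in SD, so the groups overlapped over nearly their whole range. The log2 fold change was 0.03 (95% interval -0.08 to 0.14, edgeR adjusted p = 0.732), and it was 0.11 (adjusted p = 0.0527) with an offset for GC content, a setting chosen after seeing the data. In MET+LEU its libraries lay at 769.2, 820.9 and 965.9 CPM, above all of 2% HS and above 5 of the 6 SD libraries.

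Periostin and SPARC are the matricellular members: periostin binds integrins and helps to cross-link collagen, and SPARC binds collagen as it leaves the cell. Postn (ENSMUSG00000027750, chr3:54361109-54391037, plus strand) rose from 307.6, 318.5 and 341.5 CPM in 2% HS to 522.7, 588.8 and 610.6 CPM in SD, with a log2 fold change of 0.86 ± 0.04 (edgeR adjusted p = 1.86e-22). Sparc (ENSMUSG00000018593, chr11:55394500-55423183, minus strand) rose from 1572.4, 1621.4 and 1649.0 CPM to 2297.7, 2361.7 and 2622.1 CPM, with a log2 fold change of 0.58 ± 0.04. The SD ranges of both genes cleared the 2% HS ranges by more than the width of either 2% HS range. With the combination, Postn lay at 546.1, 602.2 and 691.2 CPM and Sparc at 2193.2, 2302.0 and 2503.5 CPM, both overlapping SD.

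Fibronectin had the highest CPM of the 10, without regard to gene length. Fn1 (ENSMUSG00000026193, chr1:71585520-71653200, minus strand) had 4561.5, 4985.7 and 5493.8 CPM as the lowest, median and highest 2% HS libraries, and 7773.2, 7931.5 and 8278.8 CPM in SD, with a log2 fold change of 0.67 ± 0.04 (edgeR adjusted p = 9.82e-21). Under the combination it lay at 8070.7, 8327.9 and 8966.9 CPM, which overlapped SD. The antisense gene Apol7d overlaps 2.50% of the Fn1 exons and held 391 counts over all libraries, against at least 59277 for Fn1 in each one.

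Per kilobase of merged exon, which allows levels of different genes to be set side by side, the order in SD ran from Fn1 at 682.9 ± 15.6 CPM per kilobase (SD, n = 6) and Sparc at 638.2 ± 36.6, through Bgn at 479.3 ± 21, Ogn at 267.5 ± 28 and Postn at 66.9 ± 3.6, to Prelp at 19.2 ± 0.4. Below these came Fmod at 6.80 ± 0.54, Aspn at 5.25 ± 0.92, Dcn at 4.53 ± 0.86 and Lum at 0.832 ± 0.105 CPM per kilobase. Fn1 and Sparc did not differ beyond their spread in 2% HS (428.1 ± 27.2 and 426.1 ± 7.0 CPM per kilobase), nor did Aspn and Dcn in SD. The difference between Fn1 and Sparc in SD was not tested. Divided by the longest annotated transcript instead, Bgn came first at 1097 CPM per kilobase in SD, ahead of Sparc at 1051 and Fn1 at 960, so the order among these 3 rests on the length used.

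MET or LEU alone did not move any of the 10 genes past the test. In MET vs. SD, 0 of 10 passed with edgeR and 0 with DESeq2, and 0 had an unadjusted p under 0.05, where 0.157% of all genes tested passed. The log2 fold changes ran from -0.04 for Prelp (95% interval -0.15 to 0.07) to 0.16 for Dcn (-0.05 to 0.37). In LEU vs. SD, 0 of 10 passed with either tool, where 0.553% of all genes tested passed, and 1, Ogn, had an unadjusted p under 0.05 (log2 fold change 0.13 ± 0.05, edgeR adjusted p = 0.343). The others lay between -0.16 for Lum (-0.58 to 0.27) and 0.17 for Dcn (-0.04 to 0.38). These intervals leave out a doubling of any member under either single agent.

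**Figure D2:**
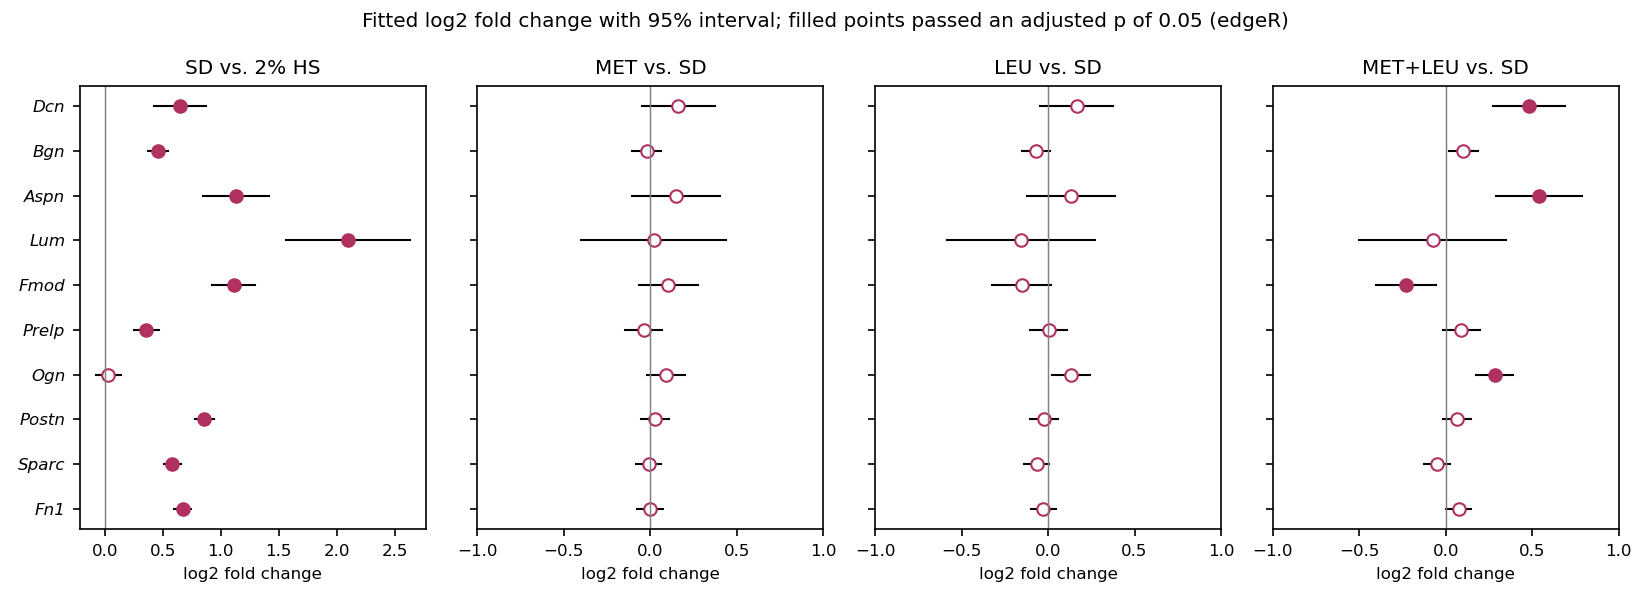
Fitted log2 fold change of each member (horizontal axis) in SD vs. 2% HS and in the 3 agents vs. SD, with 95% intervals as lines and a wider axis in the first panel. Filled points passed an adjusted p of 0.05: 9 in SD vs. 2% HS, 0 in MET vs. SD, 0 in LEU vs. SD and 4 in MET+LEU vs. SD.

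With both agents, Dcn, Aspn and Ogn rose vs. SD and Fmod fell, so 4 of 10 members passed the test, where 18.4% of all genes tested passed. Of all genes tested, 10.6% rose and 7.8% fell. The log2 fold changes were 0.48 ± 0.10 for Dcn (edgeR adjusted p = 0.00111), 0.54 ± 0.12 for Aspn (0.00166), 0.28 ± 0.05 for Ogn (0.000197) and -0.23 ± 0.08 for Fmod (0.0495). The fall of Fmod sat at the threshold. It failed to pass with only the groups compared (-0.23, edgeR adjusted p = 0.0717) and in 9 of 30 fits that each left out 1 library. Those libraries were SD replicates 2, 3, 5 and 6, MET replicate 4, and MET+LEU replicates 1, 3, 4 and 5, with adjusted p up to 0.116 and log2 fold changes of -0.27 to -0.19 over all 30 fits. The SD libraries serve both here and in SD vs. 2% HS, so the 2 comparisons are not independent. The median over the 10 members was 0.08, against -0.01 over all genes tested.

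The members that did not pass in MET+LEU vs. SD were Bgn, Lum, Prelp, Postn, Sparc and Fn1. Their log2 fold changes ran from -0.08 for Lum (95% interval -0.50 to 0.35) to 0.10 for Bgn (0.02 to 0.19, edgeR adjusted p = 0.0706). Bgn did pass without SD replicate 5 or without MET+LEU replicate 3, and its value was 0.05 (adjusted p = 0.369) without MET+LEU replicate 6. Without replicate 6, the log2 fold changes vs. SD were 0.46 for Dcn (edgeR adjusted p = 0.00516), 0.41 for Aspn (0.00466), 0.23 for Ogn (0.00127) and -0.26 for Fmod (0.0314). The number of members that passed was again 4, where 2175 of 16062 genes tested passed.

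The 3 genes that rose have GC-poor transcripts, and in this comparison fold change ran with GC content. The GC content of the longest transcript is 34.4% in Aspn, 36.3% in Ogn and 37.4% in Dcn, within the lowest 3.1% of genes tested, while that of Fmod is 53.7%. Over all genes tested, the median log2 fold change in MET+LEU vs. SD went from 0.07 in the fifth of genes lowest in GC to -0.10 in the fifth highest. In SD vs. 2% HS it went the other way, from -0.05 to 0.05. With an offset for GC content in each library, a setting chosen after seeing the data, the MET+LEU vs. SD values were 0.36 for Dcn (edgeR adjusted p = 0.0135), 0.40 for Aspn (0.00608), 0.16 for Ogn (0.00585) and -0.19 for Fmod (0.131). Dcn, Aspn and Ogn thus passed with the offset and Fmod did not. Postn, at 36.3% GC, went from 0.06 to -0.06 and passed with neither. The 9 genes that rose in SD vs. 2% HS also passed with the offset.

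**Figure D3:**
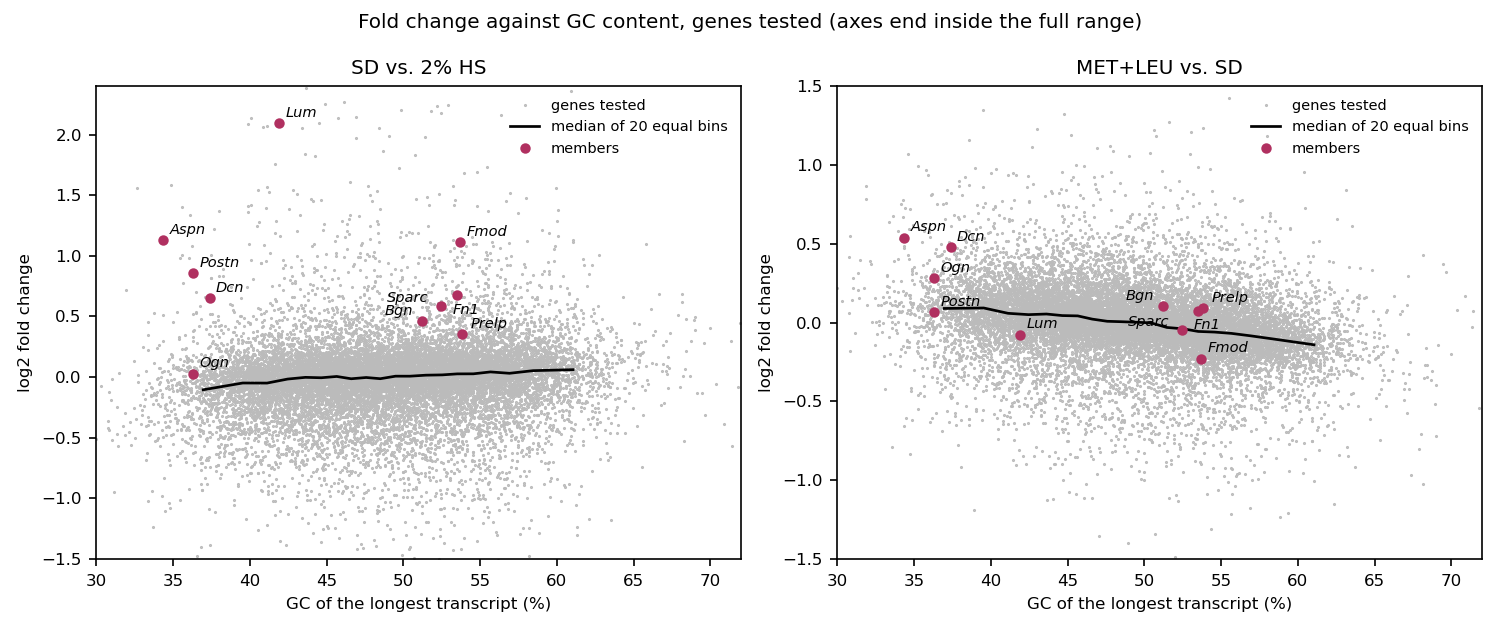
Log2 fold change (vertical axis) against the GC content of the longest transcript in percent (horizontal axis) for SD vs. 2% HS on the left and MET+LEU vs. SD on the right. Grey points are genes tested, the black line is the median of 20 bins of equal number, and named points are the members. The line slopes slightly upward in the first panel and downward in the second, where Aspn, Dcn and Ogn lie above it at the low-GC end.

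Set against 2% HS rather than SD, all 10 members were higher in MET+LEU, and the 2 groups overlapped for none of them. Of all genes tested, 42.3% passed in this comparison and 22.1% upward, and 11.5% had all MET+LEU libraries above all 2% HS libraries. The log2 fold changes ran from 0.31 ± 0.05 for Ogn to 2.02 ± 0.26 for Lum, with Aspn at 1.67 ± 0.13 and Dcn at 1.13 ± 0.11. This comparison shares the MET+LEU libraries with the one vs. SD, so the values are set side by side and not as separate evidence. Fmod stayed above its 2% HS level, at 0.88 ± 0.09. Without MET+LEU replicate 6 the number that passed was again 10, with Ogn at 0.26, Dcn at 1.10, Aspn at 1.54 and Lum at 1.99. In that fit 6506 of 16062 genes tested passed.

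In MET+LEU vs. MET, 5 members passed (Dcn 0.32, Bgn 0.12, Ogn 0.19 and Aspn 0.39 higher, Fmod -0.33 lower on the log2 scale), where 8.69% of all genes tested passed. Without MET+LEU replicate 6 only Fmod passed (-0.37, edgeR adjusted p = 0.00497), where 726 of 16062 genes tested passed. With the GC offset the number of members was 1 too, where 1338 of 15881 genes tested passed. Bgn failed to pass in 27 of the 30 fits that left out 1 library and Dcn in 21. In MET+LEU vs. LEU, 2 passed (Bgn 0.17 and Aspn 0.41), where 6.28% of all genes tested passed. Without replicate 6 only Bgn did (0.11, edgeR adjusted p = 0.0425), where 457 of 16062 genes tested passed. In MET+LEU vs. LEU, Aspn failed to pass in 15 of the 30 fits that left out 1 library (edgeR adjusted p up to 0.14). It also failed with upper-quartile normalization, the looser filter, only the groups compared and the GC offset. Bgn failed with only the groups compared (edgeR adjusted p = 0.0612).

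The interaction of MET and LEU asks whether the combination departs from the sum of the single agents on the log2 scale. Here 0 of 10 members passed with edgeR and 0 with DESeq2, where 0.0503% of all genes tested passed, and 2, Bgn and Fn1, had an unadjusted p under 0.05. The interaction was 0.19 ± 0.06 for Bgn (edgeR adjusted p = 0.249) and 0.11 ± 0.05 for Fn1 (edgeR adjusted p = 0.529). For the 3 genes that rose with the combination it was 0.15 for Dcn (95% interval -0.14 to 0.45), 0.26 for Aspn (-0.10 to 0.61) and 0.06 for Ogn (-0.09 to 0.21). Leaving out 1 library moved it to as low as 0.06 for Dcn (without SD replicate 5) and 0.13 for Aspn (without MET+LEU replicate 6). A departure from additivity was not detectable for them with 6 libraries per group.

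Several members sit side by side in the genome. On chromosome 13, Ecm2, Aspn, Omd and Ogn lie in a row on the plus strand, with gaps of 11.7, 14.9 and 15.2 kb, inside the span of Cenpp on the opposite strand, whose exons share 7 bases with those of Aspn. Cenpp held 1126 counts over all libraries. Omd, the osteoadherin gene between Aspn and Ogn, rose from 2% HS to SD and from SD to MET+LEU, as Aspn did. Its lowest, median and highest libraries were 2.35, 3.24 and 4.95 CPM in 2% HS, 6.84, 8.49 and 10.8 CPM in SD and 11.6, 14.5 and 20.9 CPM in MET+LEU. The 3 groups did not overlap. The log2 fold change was 1.34 ± 0.15 in SD vs. 2% HS (edgeR adjusted p = 4.77e-09). That in MET+LEU vs. SD was 0.81 ± 0.13 (2.26e-05), and it was 0.70 without MET+LEU replicate 6 and 0.68 with the GC offset.

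Ecm2, at the upstream end of the row, encodes a matrix protein related to these proteoglycans and rose by 0.34 ± 0.09 in SD vs. 2% HS (edgeR adjusted p = 0.00243). On chromosome 10, Dcn and Lum are followed by Kera and Epyc, which had at most 1 count in any library. On chromosome 1, Prelp lies 2.3 kb from Optc, which held 4 to 20 counts a library, and 115.8 kb from Fmod.

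**Figure D4:**
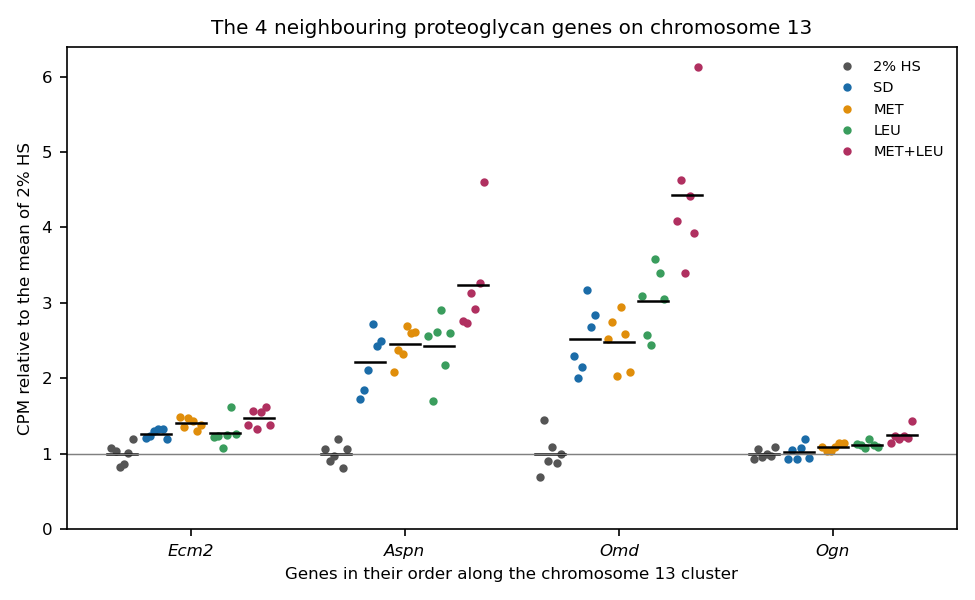
CPM of the 4 neighbouring genes of chromosome 13 in each library divided by the gene's mean in 2% HS (vertical axis, starting at 0), in their order along the chromosome. Points are libraries coloured by medium and black bars are group means. Omd and Aspn step up in SD and again in MET+LEU, Ogn in SD overlaps 2% HS and is higher in MET+LEU, and the highest MET+LEU point of Aspn, Omd and Ogn is replicate 6.

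Promoter sequence from RefSeq (GRCm38.p6) was found for 7 of the 10 members (Bgn, Fmod, Ogn, Prelp, Aspn, Postn and Sparc). The 100 bases before the annotated start are shown, 5′ to 3′ on the strand of the gene, for the 3 of them that passed in MET+LEU vs. SD and for the start of Postn that agrees best with its gene annotation. They lie at chr13:49544343-49544442 (Aspn), chr13:49607915-49608014 (Ogn), chr1:134037154-134037253 (Fmod) and chr3:54361007-54361106 (Postn), all on the plus strand. Capitals mark any match, on either strand, to the TATA box TATAAA, the CCAAT box, the Sp1 motif GGGCGG, the TEAD motif CATTCC or the AP-1 motif TGANTCA, and none of these matches overlap in the stretches shown.
Aspn: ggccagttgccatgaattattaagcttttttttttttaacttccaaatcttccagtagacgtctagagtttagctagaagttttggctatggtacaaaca
Ogn: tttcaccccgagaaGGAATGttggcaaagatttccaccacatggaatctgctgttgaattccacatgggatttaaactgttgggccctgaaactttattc
Fmod: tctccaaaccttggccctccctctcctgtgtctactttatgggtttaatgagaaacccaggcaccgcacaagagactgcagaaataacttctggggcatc
Postn: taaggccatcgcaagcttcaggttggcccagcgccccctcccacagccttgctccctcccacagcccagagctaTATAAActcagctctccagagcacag
The GC content of these stretches is 35% in Aspn, 43% in Ogn, 50% in Fmod and 60% in Postn. Postn has TATAAA at position -26 from its start, Ogn has CATTCC on the reverse strand at -86, and the stretches of Aspn and Fmod hold none of the 5 motifs. Over the 250 bases upstream, 12.4% of 32851 promoters hold TATAAA, 12.6% CATTCC, 33.8% CCAAT, 32.7% GGGCGG and 6.7% TGANTCA. In that longer window Aspn has 2 TATAAA and 1 CCAAT and Ogn has 2 TATAAA, Bgn has 3 GGGCGG of which the last 2 overlap, Prelp has 1 CCAAT, and Sparc and Fmod hold none of the 5. A match is a description of letters and not of a bound factor.

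The genes most like each member over the 30 libraries were found by Pearson's r of log2 CPM, as a description, since the points share groups and libraries. Fn1 and Postn shared Col12a1, a collagen of fibril surfaces, as the nearest gene (r = 0.982 and 0.98). Sparc ran closest to Col6a2 (0.983) and Col6a1 (0.981), chains of the microfibrillar collagen VI. Bgn ran closest to Calr, an endoplasmic reticulum chaperone (0.97), Ccdc80 and Arcn1. Dcn ran closest to Igf1, the muscle growth factor (0.93), Cdh11 and Masp1, and Aspn to Bdnf (0.96), Jun and Ccdc80. Prelp ran closest to Olfml3 (0.907), Tgfb3 and Ccdc80, Fmod to Cav1 (0.94), Angptl4 and Ces2g, and Lum to Slc6a2 (0.927), Angpt4 and Lrrc55. Ogn ran closest to Rhoa (0.905), Lmod2 and Tmem184c.

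Other genes of the same matrix were counted in 6 lists, to be read against the share of all genes tested that passed, 27.8% for serum deprivation and 18.4% for MET+LEU vs. SD. For MET+LEU vs. SD, 2175 of 16062 genes passed without MET+LEU replicate 6 and 2527 of 15881 with the GC offset. Of 7 other small leucine-rich proteoglycan genes tested, 4 rose and 0 fell in SD vs. 2% HS, among them Omd and Ecm2 above and Tsku (0.33 ± 0.09), and in MET+LEU vs. SD 1 rose (Omd) and 1 fell (Podnl1, -0.14 ± 0.05). Podnl1 did not pass with the GC offset (-0.05, edgeR adjusted p = 0.497), with only the groups compared, with the looser filter, or in 5 of 30 fits that left out 1 library, MET+LEU replicate 6 among them (adjusted p up to 0.159). Of 15 other matrix and cell-surface proteoglycans, 5 rose and 2 fell in SD vs. 2% HS. Prg4, which encodes the lubricant lubricin, rose by 1.5 ± 0.27, and Vcan, the large chondroitin sulfate proteoglycan versican, changed by -0.44 ± 0.04. Of the 15, 3 rose in MET+LEU vs. SD, led by Prg4 at 0.96 ± 0.21, and 8 fell, among them Col18a1 at -0.29 ± 0.07, the NG2 gene Cspg4 at -0.22 ± 0.05 and the perlecan gene Hspg2 at -0.21 ± 0.05. Col18a1 did not pass with the GC offset (-0.18, edgeR adjusted p = 0.123). Prg4 stood at 0.70 without MET+LEU replicate 6, where 3 of the 15 rose and 6 fell, and with the GC offset 2 rose and 3 fell.

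Of 34 other matricellular and adhesive glycoprotein genes tested, 20 rose and 7 fell in SD vs. 2% HS. Dpt, the decorin-binding dermatopontin, rose by 3.05 ± 0.07 on the log2 scale and ranked first of all genes tested by p. Thbs2, an anti-angiogenic thrombospondin, rose by 2.06 ± 0.05 and Smoc1 by 1.69 ± 0.11. Lower in SD were Sparcl1, the nearest relative of Sparc (-1.39 ± 0.11), Ccn2, the connective tissue growth factor (-1.07 ± 0.06), and the basement membrane gene Nid2 (-0.62 ± 0.04). Of the 34, 7 rose in MET+LEU vs. SD, with Fbln1 at 0.36 ± 0.08 and Ccn2 at 0.21 ± 0.06, and 4 fell, with the tenascin gene Tnc at -0.22 ± 0.03.

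Fibrillar collagens and their partners, which the proteoglycans decorate, rose in 12 of 20 tested and fell in 3 in SD vs. 2% HS, with Col12a1 at 1.19 ± 0.04, Col3a1 at 0.83 ± 0.03 and Col14a1 at -1.55 ± 0.14. With the combination 4 rose vs. SD and 6 fell, with Col11a1 at 0.43 ± 0.09 and Col1a1, the major fibrillar chain, at -0.35 ± 0.05. Of 23 genes of glycosaminoglycan chain synthesis tested, 8 rose in SD, led by the sulfotransferase gene Chst12 (0.71 ± 0.08), and 2 fell, among them Chst15 (-0.34 ± 0.05). With the combination 0 rose and 3 fell: B3galt6 (-0.32 ± 0.12), Chst3 (-0.30 ± 0.07) and Chpf (-0.19 ± 0.06). With the GC offset only 1 of the 23 passed, with B3galt6 at an edgeR adjusted p of 0.0536 and Chpf at -0.10 (adjusted p = 0.124). Without MET+LEU replicate 6 the number was 1 too, with Chpf at -0.14 (adjusted p = 0.0637), and B3galt6 failed to pass in 8 of 30 fits that left out 1 library.

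Among 16 receptors of fibronectin and the matricellular proteins, 6 rose and 3 fell in SD vs. 2% HS. Itga4, a fibronectin-binding integrin chain, rose by 2.07 ± 0.15, while the cross-linking enzyme gene Tgm2 changed by -0.96 ± 0.07 and the thrombospondin receptor Cd36 by -0.56 ± 0.09. Under MET+LEU the integrin genes Itgb1 (0.12 ± 0.03) and Itgav (0.11 ± 0.03) rose and Itga5 fell (-0.16 ± 0.04), and none of these 3 passed with the GC offset. Itgav failed to pass in 7 of 30 fits that left out 1 library, MET+LEU replicate 6 among them (edgeR adjusted p up to 0.158). In MET vs. SD 0 genes of these 6 lists passed, and in LEU vs. SD 3 did: Tnc, Col1a1 and Adamts2, all lower.

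Markers of fibroblasts and mesenchymal progenitors were higher in SD too. Of 10 fibroblast and mesenchymal progenitor markers, 9 were tested and 8 rose in SD vs. 2% HS, Dpt, Col15a1, Cxcl14, Pi16, Ly6a, Pdgfra, Cd34 and Tcf7l2, and Thy1 averaged under 1 CPM. Of all genes tested, 13.9% rose in that comparison. The summed level of the fibroblast and mesenchymal progenitor markers ran from 120.7 to 128.7 CPM in 2% HS and from 216.7 to 241.5 CPM in SD, and in MET+LEU from 222.1 to 247.4 CPM. Myogenic cells transcribe several of these markers, and the part of such cells in the rise of the 9 members was not tested. In bulk RNA a change in the number of cells of a type and a change in RNA per cell cannot be told apart.

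All 15 myotube markers were detected. The lowest, median and highest libraries of their summed level were 45784, 47707 and 48773 CPM in 2% HS. They were 37543, 40233 and 40432 CPM in SD and 38308, 40498 and 48479 CPM in MET+LEU. Of these 15, 2 rose and 6 fell in SD vs. 2% HS, and 7 rose and 0 fell in MET+LEU vs. SD. Of all genes tested, 13.9% rose and 13.9% fell in the first comparison, and 10.6% rose and 7.8% fell in the second. Of 10 markers of undifferentiated myoblasts or reserve cells, 1 rose and 6 fell in SD vs. 2% HS (1355 to 1468 CPM summed in 2% HS and 1068 to 1264 CPM in SD), and 1 rose and 1 fell in MET+LEU vs. SD. Of the other lineages, the adipocyte markers summed to at most 0.268 CPM, the macrophage markers Adgre1 and C1qa and the endothelial marker Emcn had 0 counts, and 4 of 5 tenocyte markers, 4 of 6 chondrocyte markers and 3 of 5 Schwann cell markers averaged under 1 CPM. The summed levels of these lists ran from 98.8 to 128.4 CPM for tenocyte markers, carried by Scx, from 46.1 to 62.0 CPM for chondrocyte markers and from 2.21 to 4.99 CPM for Schwann cell markers. Those of macrophage and endothelial markers stayed under 5 CPM. Of these lists, 3 genes passed in SD vs. 2% HS on the log2 scale: the endothelial gene Vwf (-0.92) and the chondrocyte gene Matn3 (-0.76) fell, and the Schwann cell gene Mbp rose (0.99). The genes tested here were 1 tenocyte, 1 macrophage, 1 endothelial, 0 adipocyte, 2 chondrocyte and 2 Schwann cell markers. Of all genes tested, 27.8% passed in this comparison.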

How the data were processed

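RNA-sequencing was analysed for 30 libraries of C2C12 myotubes, 6 in each of 5 groups named by the sample labels. The authors prepared stranded, ribosomal RNA-depleted libraries, sequenced them with 150 × 150 bp reads and deposited raw counts per Ensembl gene, without normalization. The submitters' processing notes name cutadapt 1.16, STAR 2.7.6a, featureCounts 1.6.3, DESeq2 1.30.1 and the build GRCm38, and the annotation release, the strand setting and the treatment of multi-mapping reads are not given in the sources used here, so a gene and an antisense partner cannot be told apart where their exons overlap. Of the identifiers, 55227 matched GENCODE M21, which gave symbols, positions and lengths, and 260 did not. The members and the gene lists were chosen with earlier results of these data known.

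Counts were analysed in R 4.3.3 with edgeR 4.0.16: low counts were removed by filterByExpr given the groups (at least 10 counts, total at least 15), followed by TMM, 1 mean per group over all libraries, estimateDisp, robust glmQLFit and quasi-likelihood F tests in 8 contrasts, with Benjamini-Hochberg adjustment over the 15907 genes tested and a threshold of 0.05. The standard error is the absolute log2 fold change divided by the square root of F. Log2 CPM used a prior count of 2. No 2 libraries of a group were duplicates (the lowest chi-square per degree of freedom over 75 pairs was 2.33). The scripts were tested on simulated data.

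All members are named. For each other list, up to 3 genes in each direction could be named for MET+LEU vs. SD and for SD vs. 2% HS: those with the largest absolute log2 fold change that passed the threshold and averaged 1 log2 CPM or more. For each member, the 3 other genes with the highest Pearson's r are named. Marker genes, neighbours of the members and genes of LEU vs. SD were named beyond this rule, after their values were seen. Alternatives were upper-quartile normalization, size factors of DESeq2, its Wald test (1.42.0), a looser and a stricter filter, fits of the compared groups alone, a block for the replicate number, leaving out each library, unscaled CPM, another gene length and, chosen after seeing the data, an offset for GC content (a loess of span 0.5).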

Additional observations from a re-analysis of the deposited data

Results flagged for a closer look

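Of 50 groups of 6 libraries examined (10 members in 5 media), 4 held a library whose gap to its nearest neighbour was over Dixon's 95% limit, a rate that chance gives in about 1 of 20 groups. MET+LEU replicate 6 was the highest library of its group for Bgn at 3670.0 CPM (next 3138.5), for Ogn at 965.9 CPM (next 830.9) and for Aspn at 25.6 CPM (next 18.2). This is the library with 5.85% ribosomal RNA and a TMM factor of 0.803, and the part of these in the 3 values was not tested. SD replicate 1 was the lowest of its group for Postn, at 522.7 CPM (next 577.9), and still above all 2% HS libraries.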

How the results depend on the processing

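The number of members that passed was the same under all alternatives in SD vs. 2% HS (9), MET vs. SD (0), LEU vs. SD (0), MET+LEU vs. 2% HS (10) and the interaction (0), except that the stricter filter left Lum out, giving 8 of 9 and 9 of 9 vs. 2% HS. It was 3 or 4 in MET+LEU vs. SD. In MET+LEU vs. MET it was 3 with upper-quartile normalization, 2 with more than 5 counts in total, 3 with only the groups compared and 1 with the GC offset, and 1 to 5 when 1 library was left out. In MET+LEU vs. LEU it was 1 with upper-quartile normalization, the looser filter, only the groups compared or the GC offset, and 1 to 4 when 1 library was left out. The cause was not tested.

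Genes past the threshold in MET vs. SD numbered 120 with DESeq2 and 44 with the GC offset (4 to 160 without 1 library). In LEU vs. SD they numbered 168 with DESeq2 and 197 with only the groups compared (43 to 269). With only the groups compared there were 1422 in MET+LEU vs. SD (2175 to 3159 without 1 library), 589 in MET+LEU vs. MET (726 to 1558) and 311 in MET+LEU vs. LEU, where the GC offset gave 563 (396 to 1293 without 1 library). The interaction had 5 with DESeq2's size factors, 4 with upper-quartile normalization, 28 with DESeq2, 3 with the looser filter, 4 with the stricter one and 1 with only its groups (1 to 11 without 1 library). Without MET+LEU replicate 6, MET+LEU vs. MET had 726 and MET+LEU vs. LEU 457. Ranges without 1 library were 3930 to 4873 in SD vs. 2% HS and 6343 to 6873 in MET+LEU vs. 2% HS.

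Changes of sign touched only log2 fold changes that had not passed. In MET vs. SD, Fn1 went from -0.0029 to 0.0042 with the looser filter, 0.0039 with the stricter, 0.0015 with only the groups compared and 0.0122 with the GC offset, which also gave -0.0089 for Lum, -0.0181 for Postn and 0.0032 for Sparc. The GC offset turned Postn to -0.0605 vs. SD, -0.0423 vs. MET and -0.0075 vs. LEU in MET+LEU, and upper-quartile normalization gave -0.0035 for Sparc in MET+LEU vs. LEU. Leaving out 1 library gave, in MET vs. SD, -0.0384 to 0.0042 for Bgn, -0.0294 to 0.0821 for Lum, -0.0259 to 0.0157 for Sparc and -0.011 to 0.011 for Fn1, and -0.0229 to 0.0545 for Ogn in SD vs. 2% HS. It gave -0.021 to 0.0233 for Prelp in LEU vs. SD, -0.0107 to 0.0554 for Postn in MET+LEU vs. MET, -0.013 to 0.0225 for Sparc in MET+LEU vs. LEU, and in the interaction -0.0109 to 0.1411 for Lum, -0.0025 to 0.0749 for Ogn and -0.0097 to 0.032 for Sparc.

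No pairing by replicate number was seen: deviations of same-numbered libraries in different groups had a mean r of 0.0225 (-0.173 to 0.345 over 60 pairs). That of libraries with different numbers was -0.00442 (300 pairs). This cannot show that the samples were unpaired. With the replicate number as a block, the genes past the threshold were 52 in MET vs. SD (25 without the block) and 17 in the interaction (8 without it). With the block 4 members passed in MET+LEU vs. LEU (2 without it). Depth limits Lum most, with 2 to 14 counts a library in 2% HS.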

Other observations

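Read over the 30 libraries, the 10 members rose and fell together: Pearson's r of log2 CPM was above 0 in 45 of 45 pairs, with a median of 0.843, a lowest value of 0.336 (Fmod and Ogn) and a highest of 0.987 (Postn and Fn1). The libraries fall into groups, so these values hold the difference between media. With each group's mean taken away, the median was 0.281 and 39 of the 45 pairs were above 0. The highest within-group value was 0.757 for Bgn and Ogn, Postn and Fn1 stood at 0.688, and the lowest was -0.224 for Lum and Fn1. MET+LEU replicate 6 was kept in these values and was the highest library of its group for Bgn, Ogn, Postn and Fn1. Its part in them was not tested, and pairs of other genes were not computed for comparison. Dcn and Ogn kept 0.634, whereas Dcn and Aspn, which both rose in MET+LEU vs. SD, had 0.0527. The points share libraries and their depth, and no test was made.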
